A study of Mus musculus with 6 samples.

Results

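The genes described here are 10 dendritic cell genes: Flt3, Zbtb46, Xcr1, Clec9a and Batf3, which mark the lineage and its subsets, and Ccr7, Fscn1, Cd83, Cd40 and Il15, which are linked to maturation. They were chosen by gene symbol from the deposited count table, and all 10 were found among its 28368 genes. The libraries are poly(A) RNA from whole mouse tumours, 3 from animals on the MS-DF-MS therapy (12 h) and 3 from untreated animals. The series title describes implanted depots that deliver STING agonists and then inducers of apoptosis. The labels name neither the drugs, the mouse strain, the age nor the tumour line, and no group carried an empty depot, so a response to the drugs and a response to an implant cannot be told apart. The series asks how STING signalling towards interferon-beta is switched on inside tumours.

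Dendritic cells take up antigen in tissues and present it to T cells. Conventional dendritic cells depend on the growth factor receptor FLT3. Their type 1 subset, which carries XCR1 and CLEC9A and needs BATF3, cross-presents antigen of dead cells to CD8 T cells. On sensing interferon or microbial signals the cells mature: they display CD40 and CD83, remodel actin with fascin, follow CCR7 ligands to lymph nodes and present IL-15 to lymphocytes. None of the maturation genes is restricted to dendritic cells. Fscn1 is also known from many motile cells, Ccr7 from lymphocytes, Cd83 and Cd40 from B cells and macrophages, and Il15 from macrophages and stroma. Of the lineage genes, Zbtb46 is also known from endothelium.

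The libraries held 57017043 to 66634551 counts. The first principal component set treated library 3 apart, at 72.9 against -37.9 to 13.3 for the other 5. Nothing in the labels states that libraries came from separate animals, and p-values here reflect only the spread over 6 libraries, part of which may be technical. Pigment cell genes were abundant in both groups: Tyrp1, an enzyme of melanin synthesis, stood at 8510 ± 458 CPM (counts scaled by library size and TMM factor; SD, n = 3) in treated and 7970 ± 42.6 CPM in control tumours. The 10 dendritic cell genes lay far lower, from 0.374 CPM (Xcr1) to 9.92 CPM (Fscn1) in control tumours. Their largest count in a library was 864 and their smallest was 2, so for Flt3, Xcr1, Clec9a and Batf3 the number of reads limits precision as well as the spread between tumours.

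Against the untreated tumours, Cd40 was 3.76-fold and Il15 2.08-fold higher in treated tumours, Ccr7 1.66-fold and Fscn1 1.29-fold higher, while Flt3 stood 4.54-fold, Xcr1 3.14-fold and Cd83 2.08-fold lower. For each of these 7 genes the 3 treated libraries lay on one side of the 3 controls. None passed the test across all genes: with edgeR's quasi-likelihood F test and Benjamini-Hochberg adjustment over 18049 genes, 0 of 10 rose and 0 of 10 fell at an adjusted p under 0.05, where 1.36% of all tested genes rose and 0.249% fell. At an unadjusted p under 0.05 there were 6 of the 10, beside 16.0% of all tested genes. Groups without overlap were seen for 7 of 10, beside 23.3% of all tested genes. Flt3 and Xcr1 passed the low-count filter only through the control libraries, so a difference was built into their passing. By the other tools, DESeq2 called 2 members higher (Cd40 and Il15), limma-voom called 0, and limma-voom with sample quality weights called 1 (Il15). These tools called 4.18%, 1.21% and 3.33% of all tested genes higher. Without treated library 3 edgeR called Cd40, beside 1.64% of all tested genes that rose in that fit.

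**Figure D1:**
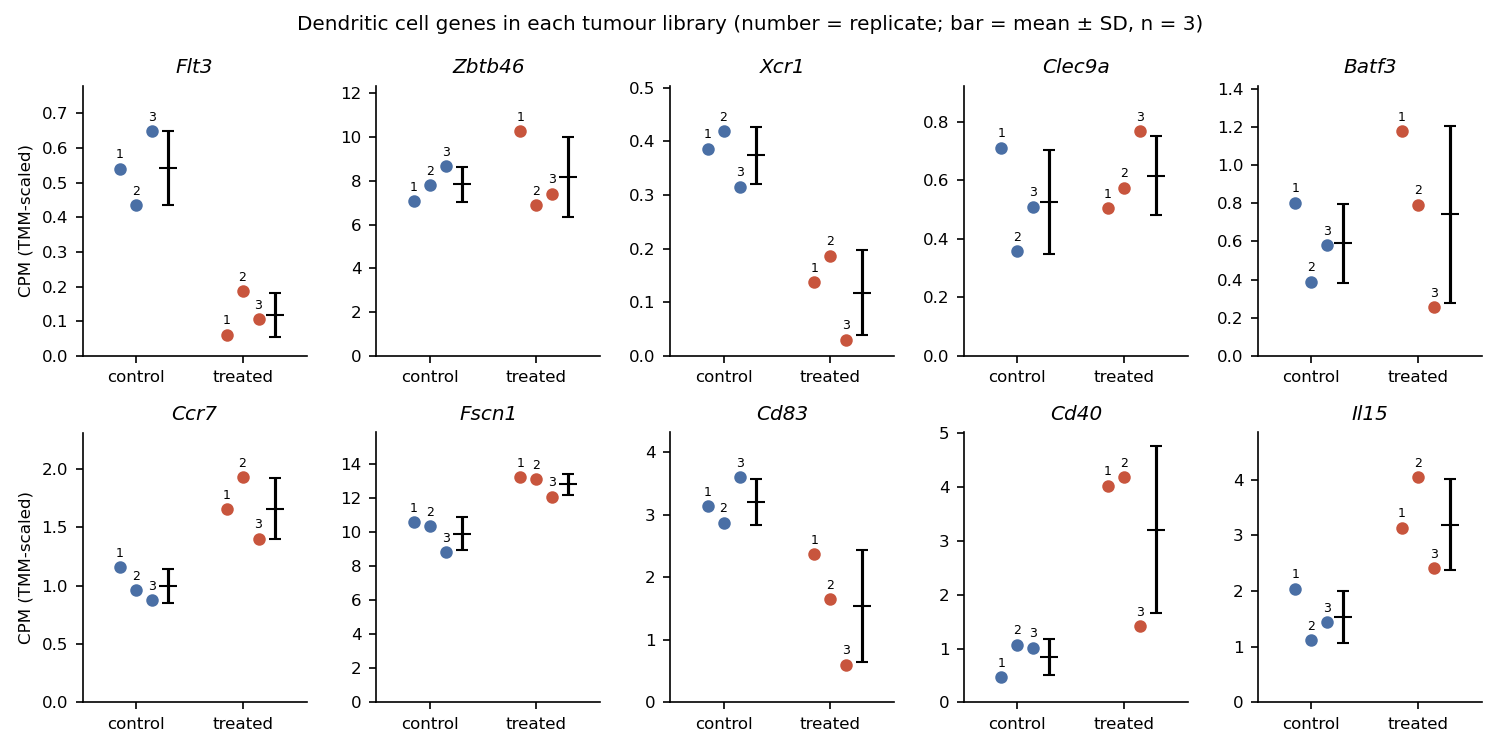
CPM of each gene in each library, 1 panel per gene with its own linear axis from 0. Blue points are the 3 control and red points the 3 treated libraries, numbered by replicate, and black bars give the mean and SD. Treated points lie wholly below the controls for Flt3, Xcr1 and Cd83, wholly above them for Ccr7, Fscn1, Cd40 and Il15, and among them for Zbtb46, Clec9a and Batf3.

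The growth factor receptor was scarce in every treated tumour. Flt3 (ENSMUSG00000042817, chromosome 5, 147330741 to 147400489) encodes the receptor tyrosine kinase whose ligand drives dendritic cell development and upkeep. It had 4, 12 and 7 counts in treated libraries 1, 2 and 3 and 35, 28 and 37 in controls 1, 2 and 3. The highest treated library thus had fewer counts than the lowest control. In CPM this was 0.118 ± 0.0635 against 0.541 ± 0.107 (SD, n = 3), a log2 fold change of -2.18 ± 0.59 (SE; 95% interval -3.54 to -0.82; edgeR adjusted p = 0.131). In bulk tissue, fewer cells of a type and less RNA per cell cannot be told apart. Its ligand gene Flt3l, made by lymphocytes and stroma, had 171, 177 and 63 counts in treated and 143, 103 and 132 in control libraries, at 0.04 ± 0.41 on the log2 scale (edgeR adjusted p = 0.974) whose sign changed under several settings. The 2 higher treated libraries were above all controls and treated 3 was below them.

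The 2 transcription factors showed no separation between groups. Zbtb46 (ENSMUSG00000027583, chromosome 2, 181387762 to 181459426), a zinc finger repressor that marks committed conventional dendritic cells, had 672, 444 and 492 counts in treated and 458, 502 and 494 in control libraries. Treated 1 was the highest and treated 2 the lowest of all 6. The log2 fold change was 0.06 ± 0.19 (SE; 95% interval -0.37 to 0.50; edgeR adjusted p = 0.913), and it was -0.13 without treated 1, so no direction is given. Batf3 (ENSMUSG00000026630, chromosome 1, 191097847 to 191108945), the AP-1 family factor on which the type 1 subset depends, had 77, 51 and 17 counts in treated and 52, 25 and 33 in control libraries. It was highest in treated 1 and lowest in treated 3, with a log2 fold change of 0.33 ± 0.58 (95% interval -1.01 to 1.67; edgeR adjusted p = 0.84) that was -0.17 without treated 1. These intervals leave room for changes of Zbtb46 up to 1.41-fold and of Batf3 up to 3.19-fold.

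Some endothelial transcripts were higher in treated tumours, and endothelium can carry Zbtb46 too. Of 12 endothelial markers 6 rose and none fell, with a median log2 fold change of 0.75 beside -0.003 over all tested genes. The summed level of the 12 was 474.8 to 506.6 CPM in treated and 370.4 to 389.8 CPM in control tumours. Pecam1, the adhesion molecule CD31, had 2750, 2773 and 2497 counts in treated and 1107, 1060 and 929 in control libraries (1.30 ± 0.09 on the log2 scale; edgeR adjusted p = 0.000348). Vwf, the von Willebrand factor, stood on the other side, at 32.8 ± 4.27 against 46.1 ± 12.8 CPM (SD, n = 3; -0.49 ± 0.20 SE, edgeR adjusted p = 0.284), and Tek, the angiopoietin receptor, had 0.004 ± 0.40 (edgeR adjusted p = 0.998), both named after their values were seen. The others that rose were Robo4, Cdh5, Esam, Tie1 and Emcn. Calls of Esam, Tie1 and Emcn ended without treated 2 or any one control, and those of Tie1 and Emcn also without treated 1, so that 3 calls were left without treated 2 or a control. Per 100 Pecam1 counts of the same library, Zbtb46 had 24.4, 16.0 and 19.7 counts in treated and 41.4, 47.4 and 53.2 in control libraries, a measure chosen after the values were seen. Zbtb46 itself overlapped between the groups while Pecam1 rose, so the lower ratio restates the rise of Pecam1. It adds nothing on Zbtb46. The part of endothelium in the Zbtb46 level was not tested.

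Of the 2 surface receptors of the type 1 subset, Xcr1 was below the controls in each treated library and Clec9a overlapped them, and a difference between the receptors was not tested. Xcr1 (ENSMUSG00000060509, chromosome 9, 123852315 to 123862029), the receptor for the chemokine XCL1 of NK and CD8 T cells, had 9, 12 and 2 counts in treated and 25, 27 and 18 in control libraries. All 3 treated libraries were below all controls. This was 0.118 ± 0.0800 against 0.374 ± 0.0529 CPM (SD, n = 3), a log2 fold change of -1.65 ± 0.72 (SE; 95% interval -3.31 to 0.0068; edgeR adjusted p = 0.313). Clec9a (ENSMUSG00000046080, chromosome 6, 129408862 to 129424763), a lectin that binds exposed actin of dead cells, had 33, 37 and 51 counts in treated and 46, 23 and 29 in control libraries. Treated 3, with the fewest Xcr1 counts, had the most Clec9a counts, and the groups overlapped (0.23 ± 0.43, 95% interval -0.76 to 1.22, edgeR adjusted p = 0.85). The span of Clec9a overlaps Clec1b on the same strand, which had a mean of 9.7 counts, so some reads could be shared. Xcl1, the ligand gene of XCR1, had 0 counts in all treated libraries and 16, 7 and 0 in controls, below the filter.

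Promoter sequences were matched by symbol in the RefSeq table (GRCm38.p6) for 6 of the 10 genes. Those of Flt3 and Xcr1, the lineage genes that were lower in each treated library, are printed beside that of Fscn1, which was higher in each. The entries for Ccr7, Cd83, Cd40 and Il15 are missing. Each is the 250 bases before the start site, 5′ to 3′ on the gene's own strand: chr5:147400490-147400739 (minus strand) for Flt3, chr9:123862030-123862279 (minus) for Xcr1 and chr5:142960105-142960354 (plus) for Fscn1. Capitals mark motif matches.
Flt3: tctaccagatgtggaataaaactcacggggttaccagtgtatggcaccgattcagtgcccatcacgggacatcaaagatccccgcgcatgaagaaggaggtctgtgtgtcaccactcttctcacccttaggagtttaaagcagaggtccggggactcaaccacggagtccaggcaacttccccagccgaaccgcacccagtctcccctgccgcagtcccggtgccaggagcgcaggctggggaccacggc
Xcr1: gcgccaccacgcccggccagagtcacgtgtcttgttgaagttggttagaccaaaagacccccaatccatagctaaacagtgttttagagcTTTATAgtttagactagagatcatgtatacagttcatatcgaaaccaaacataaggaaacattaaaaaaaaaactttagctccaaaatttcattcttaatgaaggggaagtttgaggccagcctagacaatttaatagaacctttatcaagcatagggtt
Fscn1: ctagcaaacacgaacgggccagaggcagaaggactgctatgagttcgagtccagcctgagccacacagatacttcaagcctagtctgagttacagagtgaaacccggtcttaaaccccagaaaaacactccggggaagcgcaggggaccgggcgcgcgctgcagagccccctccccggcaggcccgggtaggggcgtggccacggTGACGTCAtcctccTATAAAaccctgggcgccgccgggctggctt

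Both strands of each window were searched for the interferon-stimulated response core GAAANNGAAA, the PU.1 motif GAGGAAGT, the cyclic AMP response element TGACGTCA, the TATA box TATAAA and the NF-kB consensus. The Fscn1 window held TGACGTCA from 45 to 38 bases and TATAAA from 31 to 26 bases before the start, with no overlap between them. Of 32851 mouse windows of the same length, 1.55% held TGACGTCA and 12.4% held TATAAA. The Xcr1 window held TATAAA on the other strand from 160 to 155 bases before the start, and the Flt3 window held none of the 5. The response core, PU.1 and NF-kB motifs, found in 2.98%, 2.44% and 3.9% of all windows, were in none of the 6 matched windows, Zbtb46, Clec9a and Batf3 included. The RefSeq windows of Zbtb46 and Batf3 lie inside the gene spans of the deposited table, 34788 and 317 bases downstream of the start there, and that of Fscn1 overlaps its span by 12 bases. A match describes letters and is no evidence of binding.

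Both migration genes were higher in each treated tumour, by small amounts. Ccr7 (ENSMUSG00000037944, chromosome 11, 99144196 to 99155077), the receptor that guides mature dendritic cells and naive lymphocytes to lymph nodes, had 108, 124 and 93 counts in treated and 75, 62 and 50 in control libraries. The lowest treated library, treated 3, was above the highest control. The levels were 1.66 ± 0.263 and 0.999 ± 0.144 CPM (SD, n = 3), a log2 fold change of 0.73 ± 0.27 (SE; 95% interval 0.09 to 1.36; edgeR adjusted p = 0.249). Fscn1 (ENSMUSG00000029581, chromosome 5, 142960343 to 142973185), which encodes the actin-bundling protein fascin, had 864, 844 and 803 counts in treated and 685, 667 and 503 in control libraries. The levels were 12.8 ± 0.622 and 9.92 ± 0.957 CPM (SD, n = 3), and relative to its mean the SD in treated tumours was the smallest of the 10 genes. Its log2 fold change was 0.37 ± 0.12 (95% interval 0.08 to 0.66; edgeR adjusted p = 0.213). Of the CCR7 ligand genes, Ccl19 was near the limit of counting and Ccl21a spread widely between treated libraries. Ccl19 had 7, 11 and 0 counts in treated and 0, 0 and 7 in control libraries. Ccl21a had 100, 29 and 0 against 20, 27 and 19, at 0.89 ± 1.17 on the log2 scale (edgeR adjusted p = 0.775) whose sign changed under other settings.

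The 2 co-stimulation genes stood in opposite directions. Cd40 (ENSMUSG00000017652, chromosome 2, 165055627 to 165072948), the TNF receptor family member through which T cells license dendritic cells, had 263, 269 and 94 counts in treated and 30, 69 and 58 in control libraries. Treated 1 and 2 were several times above all controls, and treated 3 was closest to them. The levels were 3.21 ± 1.55 and 0.851 ± 0.336 CPM (SD, n = 3), a log2 fold change of 1.91 ± 0.49 (SE; 95% interval 0.78 to 3.05; edgeR adjusted p = 0.117). Without treated 3 it was 2.27 and passed (edgeR adjusted p = 0.0332, range over the alternatives 0.00345 to 0.311). Cd83 (ENSMUSG00000015396, chromosome 13, 43784775 to 43803132), an immunoglobulin family protein that stabilises MHC class II on mature cells, had 155, 106 and 40 counts in treated and 203, 185 and 205 in control libraries. All treated libraries were below all controls, and treated 3 was the lowest. The levels were 1.54 ± 0.889 and 3.20 ± 0.366 CPM, a log2 fold change of -1.06 ± 0.44 (95% interval -2.08 to -0.03; edgeR adjusted p = 0.3).

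Within a library the ratio of these 2 genes needs no scaling between libraries. For every 100 Cd83 counts there were 169.7, 253.8 and 235.0 Cd40 counts in treated libraries 1, 2 and 3 and 14.8, 37.3 and 28.3 in controls 1, 2 and 3. Cd40 thus exceeded Cd83 in each treated library and was below it in each control. The ratio was chosen after the values were seen and was not tested.

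Il15 (ENSMUSG00000031712, chromosome 8, 82331632 to 82403209), the cytokine that sustains NK and memory CD8 T cells, had 205, 260 and 160 counts in treated and 132, 72 and 82 in control libraries. Each treated library exceeded each control. The levels were 3.19 ± 0.816 and 1.53 ± 0.468 CPM (SD, n = 3), a log2 fold change of 1.06 ± 0.31 (SE; 95% interval 0.34 to 1.78; edgeR adjusted p = 0.161). Its chaperone receptor Il15ra, which presents IL-15 on the cell surface, had 271, 264 and 34 counts in treated and 101, 94 and 81 in control libraries (0.98 ± 0.64, edgeR adjusted p = 0.515). Il15ra was above the controls in treated 1 and 2 and below them in treated 3. Without treated 3 it passed the threshold (edgeR adjusted p = 0.0227), whereas Il15 itself did not (0.13).

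**Figure D2:**
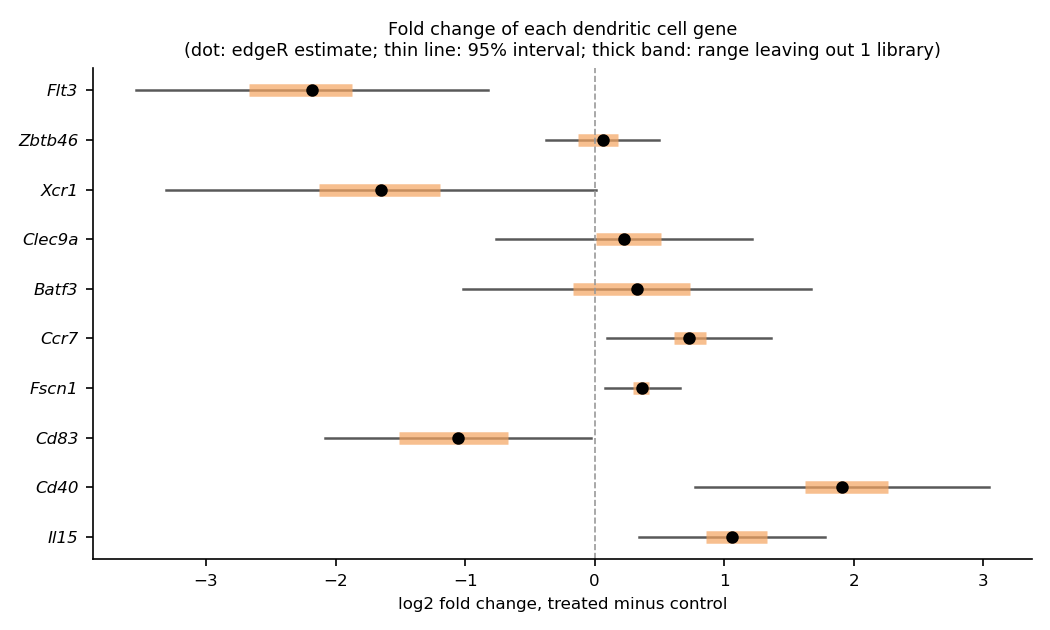
Log2 fold change of treated against control tumours (horizontal axis) for the 10 genes. Dots are edgeR estimates, thin lines 95% intervals and thick bands the range of estimates when 1 library was left out. The bands of Zbtb46 and Batf3 cross 0, from -0.13 to 0.18 and from -0.17 to 0.74, and those of the other 8 genes stay on one side of it.

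Per gene length, Fscn1 led in both groups, and Clec9a, Flt3 and Xcr1 held the last 3 ranks. In deposited FPKM (a count scaled by gene length and library size), control means ran from Fscn1 at 2.92 ± 0.279 over Cd83 at 1.10 ± 0.126, Zbtb46 at 0.815 ± 0.0826, Il15 at 0.592 ± 0.180 and Ccr7 at 0.447 ± 0.0643 to Batf3 at 0.317 ± 0.116 (SD, n = 3). Cd40 followed at 0.218 ± 0.0897, Clec9a at 0.138 ± 0.0488, Flt3 at 0.0763 ± 0.0155 and Xcr1 at 0.0727 ± 0.0118. Control libraries of Fscn1 and Cd83, of Cd83 and Zbtb46, and by a small margin of Clec9a and Flt3 did not overlap. All other neighbours in this order overlapped. In treated tumours Il15 took rank 2 in place of 4, at 1.23 ± 0.295 FPKM and Cd40 took rank 4 in place of 7, at 0.823 ± 0.394 FPKM, while Cd83 moved from rank 2 to 6, at 0.525 ± 0.307 FPKM. For Xcr1 the deposited FPKM and count departed from a constant ratio by up to 17.7%, and for the other 9 genes by at most 5.88%.

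The summed level of general leukocyte transcripts, with Lcp1 as its largest part, was below all controls in each treated tumour. In treated 1, however, Ptprc, Cd53, Laptm5 and Cd52 each stood above all controls, and Coro1a lay among them. Laptm5, for example, had 27.7 CPM in treated 1 and 17.3 to 20.1 CPM in controls. Of 6 markers of all leukocytes 6 had a negative log2 fold change and 1 fell, Lcp1, the actin-bundling protein plastin (-0.51 ± 0.08 SE, n = 3, edgeR adjusted p = 0.02) at 46.2, 50.2 and 55.0 CPM in treated 1, 2 and 3 and 69.8 to 73.6 CPM in controls. This call ended without treated 2 or any one control. The list's summed level was 113.5, 86.6 and 72.2 CPM in treated 1, 2 and 3 and 119.3 to 124.7 CPM in controls. Set against the mean of the controls, the median marker stood at 0.44 in treated 1, -0.49 in treated 2 and -1.46 in treated 3 (log2). Treated 3 was thus the lowest for the sum and the median, although for Lcp1 it was the highest treated library. It was also the lowest library for Xcr1, Cd83 and Batf3 and, among treated libraries, for Cd40, Il15, Ccr7 and Fscn1.

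Relative to Ptprc, which encodes the pan-leukocyte protein CD45, 5 of the 10 genes kept groups that did not overlap, 2 higher and 3 lower in treated tumours, beside 7.54% of all tested genes on the same scale. Of the 3 lower genes, Flt3 and Xcr1 passed the low-count filter only through the control libraries. A difference was thus built into their passing. Ptprc itself ranged from 3.06 to 10.98 CPM among treated and from 7.69 to 9.07 CPM among control libraries. This scaling was chosen after the data were seen and was not tested. Per 100 Ptprc counts, Flt3 had 0.557, 3.32 and 3.45 counts in treated and 7.03, 5.04 and 7.16 in control libraries. Xcr1 had 1.25, 3.32 and 0.985 against 5.02, 4.87 and 3.48. Cd83 had 21.6, 29.4 and 19.7 against 40.8, 33.3 and 39.6. All 3 genes therefore stood lower per Ptprc count in each treated library as well. Cd40 had 36.6, 74.5 and 46.3 against 6.02, 12.4 and 11.2. Il15 had 28.6, 72.0 and 78.8 against 26.5, 13.0 and 15.9, with treated 1 just above control 1. Ccr7 overlapped on this scale, at 15.0 in treated 1 and 15.1 in control 1, and so did Fscn1.

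**Figure D3:**
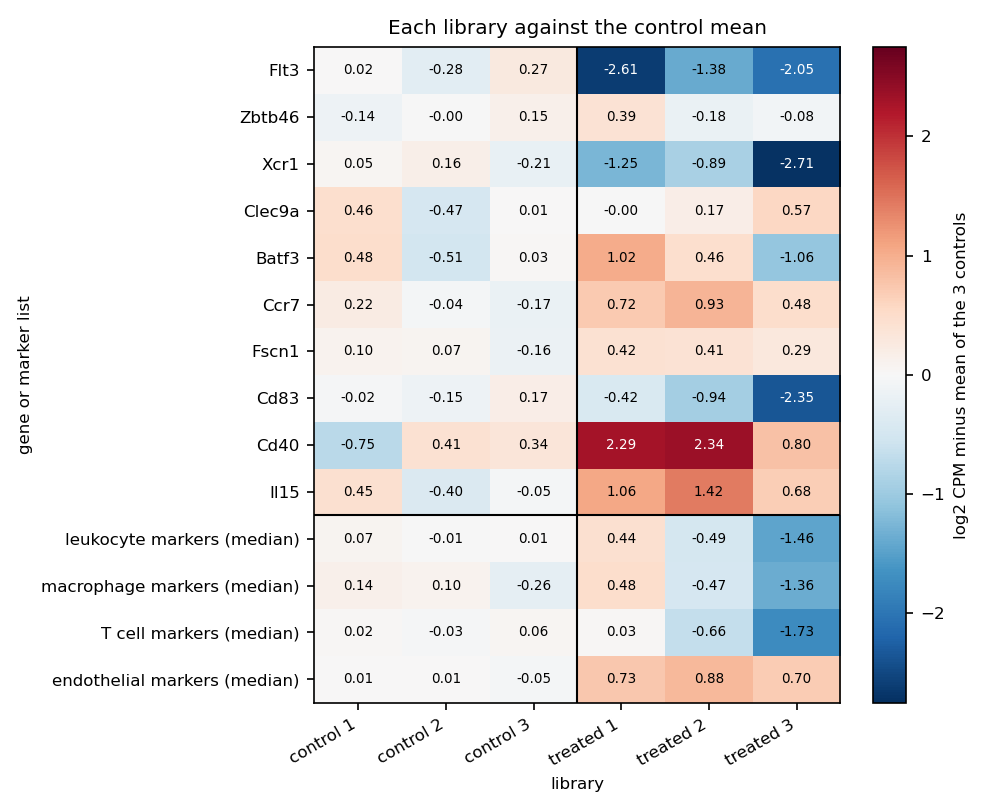
Log2 CPM of each gene minus the mean of the 3 controls, by library (columns), with medians of 4 marker lists below the line. Red is above and blue below the control mean. Treated 3 has the lowest values of Xcr1 (-2.71), Cd83 (-2.35) and the leukocyte median (-1.46), while the endothelial median is 0.70 to 0.88 in all 3 treated libraries.

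Other genes of the type 1 subset were mostly lower without passing the test, apart from Tlr3. Of 10 tested genes 1 rose and none fell, with a median log2 fold change of -0.31. Tlr3, the endosomal sensor of double-stranded RNA and an interferon-inducible gene, had 4230, 5312 and 4360 counts in treated and 1323, 1537 and 1582 in control libraries (1.56 ± 0.14 SE, n = 3, edgeR adjusted p = 0.00127), and its call held under all alternatives run. Of 7 genes with negative values, Itgae, the integrin chain CD103 (-1.16 ± 0.38, edgeR adjusted p = 0.194), and Wdfy4, a factor of cross-presentation (-0.87 ± 0.34, 0.262), were named after their values were seen. Itgae had 35, 23 and 29 counts in treated and 83, 58 and 45 in control libraries, and Wdfy4 had 124, 89 and 58 against 209, 139 and 127. For both, all treated libraries were below all controls, as for Flt3 and Xcr1, which passed the low-count filter only through the controls. Nfil3 of the same list went the other way, with all treated libraries above all controls (0.15 ± 0.09, edgeR adjusted p = 0.483). The groups of Irf8, Naaa, Snx22, Ppt1 and Id2 overlapped. Cadm1, the most abundant gene of the list, stood at 231.4 ± 26.2 against 292.9 ± 12.5 CPM (-0.34 ± 0.09, edgeR adjusted p = 0.121), and DESeq2 called it lower. In control tumours Xcr1 stood at 0.374 CPM and the leukocyte gene Ptprc at 8.46 CPM, far below Cadm1. Which cells carried Cadm1 was not tested.

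Genes of the other subsets gave few calls. Of 9 tested type 2 genes 1 rose, Esam, which is also an endothelial gene, and the median log2 fold change was -0.45. Sirpa, its most abundant member and a receptor for CD47, had 0.17 ± 0.13 (SE, n = 3, edgeR adjusted p = 0.597). Of 9 other genes of the whole lineage none was called (edgeR; 0 at an unadjusted p under 0.05 too), with a median of -0.25. Among them Ikzf1 had -0.67 ± 0.39 (edgeR adjusted p = 0.46), Kmo -0.76 ± 0.49 (0.507) and Cd74, the invariant chain of MHC class II, -0.78 ± 0.65 (0.625), at 22368, 8847 and 2364 counts in treated and 13262, 19357 and 21788 in control libraries. DESeq2 and both limma-voom fits called none of these 9 either. Of 8 tested plasmacytoid genes 2 rose, Irf7 (3.63 ± 0.25, edgeR adjusted p = 0.00036) and Bst2 (1.01 ± 0.18, 0.0397), both known interferon-stimulated genes in many cells. Siglech, a defining receptor of plasmacytoid cells, had 6 counts in control 1 and 0 in the other 5 libraries. The call of Bst2 ended without treated 2 or 3 or any one control.

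Among 20 other tested genes of mature dendritic cells, 3 rose and none fell, with a median log2 fold change of 0.20. They were Cd200, an inhibitory ligand (1.56 ± 0.22 SE, n = 3, edgeR adjusted p = 0.0159), Relb, the NF-kB subunit needed for dendritic cell maturation (0.64 ± 0.12, 0.0464), and Tnfsf9, the ligand of 4-1BB (0.62 ± 0.11, 0.0423). In control tumours Cd200, Relb and Tnfsf9 stood at 3.48, 8.49 and 11.1 CPM, beside 0.999 CPM for Ccr7. Which cells carried these transcripts was not tested. Relb had 879, 914 and 809 counts in treated and 526, 550 and 502 in control libraries, so its groups lay well apart. Even so, the count of 3 was 0 without treated 2 or any one control, and 1 without treated 1. Marcksl1, the most abundant member, had -0.05 ± 0.07 (edgeR adjusted p = 0.765). Further genes of the list, Ccl17, Il12b, Cd70 and Apol7c, had too few counts to be tested.

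**Figure D4:**
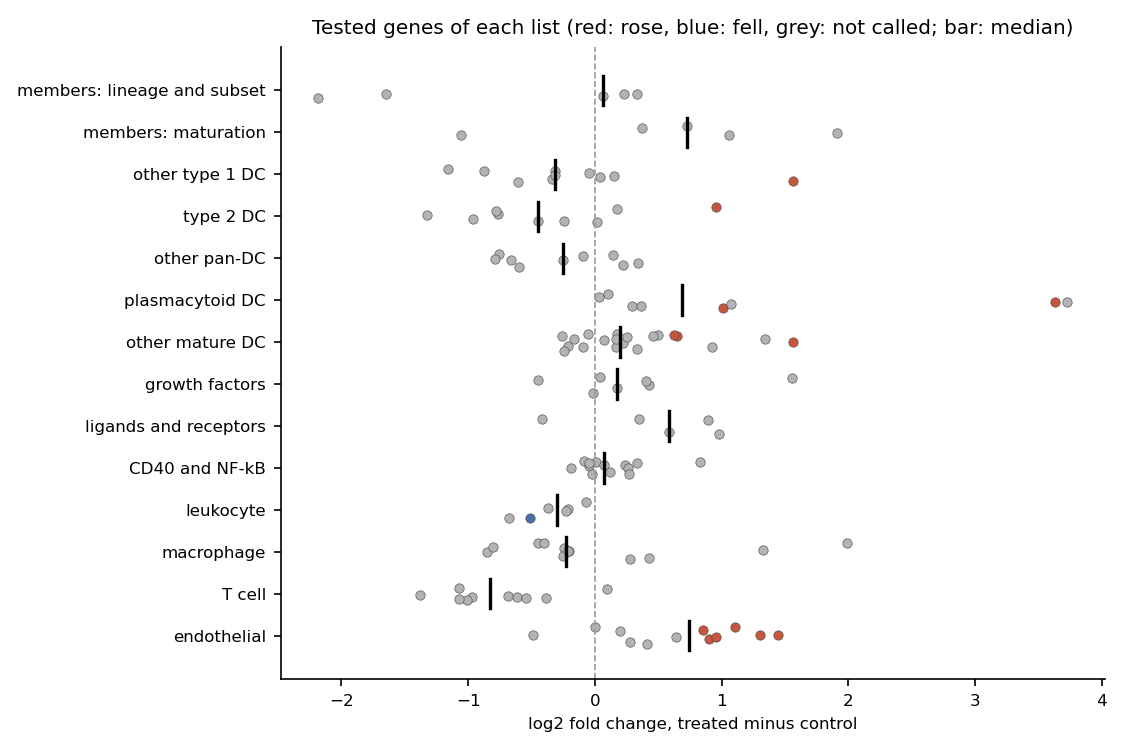
Log2 fold change (horizontal axis) of every tested gene of 14 lists, 1 point per gene, with a bar at each list's median. Red points rose, blue fell and grey points were not called. The maturation genes have a median of 0.73 and the lineage and subset genes 0.06, with none called, and the endothelial list has 6 red points.

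Upstream signals of maturation were described through 3 lists. Of 13 genes that carry the signal of CD40 and NF-kB, none was called by edgeR, 4 had an unadjusted p under 0.05, DESeq2 called 3 higher and limma-voom with quality weights 1, and the median log2 fold change was 0.07. Rela, the main activating NF-kB subunit, had 3737, 3655 and 3681 counts in treated and 3024, 3004 and 2683 in control libraries (0.27 ± 0.06 SE, n = 3, edgeR adjusted p = 0.0749). Nfkb1 had 0.26 ± 0.07 (0.131) and Chuk -0.02 ± 0.08 (edgeR adjusted p = 0.933). Of 7 tested growth factor and receptor genes none was called, 1 had an unadjusted p under 0.05 and the median was 0.18. Csf3, the granulocyte growth factor, had 158, 124 and 24 counts in treated and 33, 46 and 21 in control libraries, and passed without treated 3 (edgeR adjusted p = 0.0499). Csf1 had 0.43 ± 0.24 (0.428). Of 5 tested ligand and receptor partners none was called, 0 had an unadjusted p under 0.05 and the median was 0.58. Il2rg, the shared chain of the IL-15 receptor, had 0.35 ± 0.28 (edgeR adjusted p = 0.605). DESeq2 and both limma-voom fits called none in the last 2 lists.

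Markers of other cell types that could carry these transcripts were measured beside them. Of 12 macrophage and monocyte markers none was called (2 at an unadjusted p under 0.05, DESeq2 1, both limma-voom fits 0), with a median of -0.23 and summed levels of 271.6, 162.6 and 81.7 CPM in treated 1, 2 and 3 and 164.1 to 223.0 CPM in controls. Ly6c2, a monocyte gene, had 486, 289 and 105 counts in treated and 60, 81 and 69 in control libraries (1.99 ± 0.51 SE, n = 3, edgeR adjusted p = 0.116). As for Cd40, all treated libraries were above all controls and treated 3 was the closest to them. Fcgr1 had 1.33 ± 0.57 (0.311) and Lyz2 -0.80 ± 0.40 (edgeR adjusted p = 0.375). Of 10 T cell markers none was called (2 at an unadjusted p under 0.05), with a median of -0.83 and sums of 11.4 to 16.7 CPM in treated and 16.1 to 17.5 CPM in control tumours. Cd8a had -1.07 ± 0.39 (edgeR adjusted p = 0.24), Trac -1.01 ± 0.40 (0.268) and Lck 0.09 ± 0.14 (0.802). Lck was the largest part of these sums, at 8.79 to 9.90 CPM in treated and 8.00 to 9.88 CPM in control tumours. Against the mean of the controls, the median T cell marker stood at 0.03, -0.66 and -1.73 in treated 1, 2 and 3 (log2). Of 5 tested B cell markers none was called (0 at an unadjusted p under 0.05). Cd79b had -1.56 ± 1.09 (edgeR adjusted p = 0.547), and Cd79a 0.31 ± 0.31 (0.687). Cd79b passed the low-count filter only through the control libraries, so a difference was built into its passing. Ms4a1, named after its values were seen and not tested, had 4 counts in control 1 and 0 in the other 5 libraries. Of 4 tested NK markers none was called (0 at an unadjusted p under 0.05), with Eomes at -1.16 ± 0.59 (edgeR adjusted p = 0.39) and Prf1 at -0.14 ± 0.52 (0.931). DESeq2 and both limma-voom fits called none of the T cell, B cell or NK markers. The part of these cell types in the levels of Cd40, Cd83, Ccr7 and Il15 was not tested.

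Neutrophil and interferon-stimulated transcripts differed between the treated libraries too. Of 7 tested neutrophil markers 7 had positive log2 fold changes and none was called by edgeR (5 at an unadjusted p under 0.05, DESeq2 3, both limma-voom fits 0). Retnlg, among these, passed the low-count filter only through the treated libraries, so a difference was built into its passing. Cxcr2 reached the filter's level in 2 treated libraries and 1 control. The sum of the neutrophil markers was 57.5, 19.2 and 5.59 CPM in treated 1, 2 and 3 and 2.81 to 6.24 CPM in controls. S100a8 had 832, 202 and 88 counts in treated and 13, 15 and 35 in control libraries (4.04 ± 0.89 SE, n = 3, edgeR adjusted p = 0.0794), and S100a9 had 3.78 ± 0.93 (0.107). Of 10 interferon-stimulated reference genes 9 rose, with summed levels of 2309, 2715 and 1627 CPM in treated and 354.8 to 614.2 CPM in control tumours, lowest among treated libraries in treated 3. Treated 3 was likewise the lowest treated library for Cd40, Il15, Ccr7 and Fscn1, but also for Xcr1, Batf3 and Cd83. The same held for the summed leukocyte, macrophage, T cell and neutrophil markers. A link of any of these to interferon was not tested. The interferon gene Ifnb1 itself had 20, 95 and 7 counts against 15, 5 and 0 (2.57 ± 1.25, edgeR adjusted p = 0.363). Pigment cell markers, 7 tested with none called (1 at an unadjusted p under 0.05, 0 by DESeq2 and both limma-voom fits), had a median of 0.0006, Pmel at 0.18 ± 0.06 (edgeR adjusted p = 0.209) and Tyr at -0.18 ± 0.08 (0.317).

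The patterns of the better measured genes were set against all tested genes by the root mean square difference of centred log2 CPM over the 6 libraries. Nearest to Ccr7 were Hes1, a Notch target (0.05), and F11r, a tight junction protein (0.07), which rose (log2 fold change 0.71, edgeR adjusted p = 0.049) with a call that was lost under several alternatives. Nearest to Fscn1 were Gprc5b (0.02) and Slc12a9 (0.03). Cd83 lay nearest to Lpl, lipoprotein lipase (0.16), and Cd180, a receptor of B cells and macrophages (0.18), with log2 fold changes of -1.08 and -0.89. Cd40 lay nearest to Apol9a (0.19), at 2.06 (edgeR adjusted p = 0.0515), and Lrrc8e (0.22). Il15 lay nearest to Ggn and Cldn15 (both 0.17), and Zbtb46 to Hnrnph3 (0.04) and Ahsa2 (0.05). Among the 10 genes themselves, Ccr7 and Fscn1 were each other's nearest (0.21), as were Xcr1 and Cd83 (0.38), while Il15 lay nearest to Ccr7 (0.26) and Flt3 to Xcr1 (0.67). Fscn1 was also the nearest member for Zbtb46 (0.28) and Clec9a (0.35). The measure favours genes that vary little, and the SD of Fscn1 over the libraries was 0.23 (log2). These distances describe 6 libraries and say nothing of shared control.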

How the data were processed

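Poly(A) RNA of 6 mouse tumour libraries, 3 treated and 3 control by the library names in the labels, was sequenced as strand-marked paired reads. The authors deposited raw counts and FPKM per gene, per the file headers. Tools named in the submitters' processing notes are fastp, StringTie and edgeR, with roles, versions, aligner, build and use of strand not given in the sources used here. GENCODE M21 (GRCm38) holds 99.7% of the identifiers, and in it 9 of the 10 genes have the same start and end. For 58 rows with a repeated symbol, the row with the highest mean count kept it.

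Counts were tested in R 4.3.3 with edgeR 4.0.16: filterByExpr (minimum count 10, minimum total 15), which kept 18049 genes, TMM scaling, glmQLFit and glmQLFTest on group, two-sided, Benjamini-Hochberg over all tested genes at 0.05. The SE is the log2 fold change over the square root of F. FPKM, deposited by the authors, gave only levels between genes. Alternatives used limma 3.58.1 and DESeq2 1.42.0. The fits were tested on simulated data. The 10 genes, the marker lists and the tests were chosen with earlier results of these data known. Genes named are the 10, up to 8 called genes per list (the 2 with the smallest p where none passed), the most abundant of each, 7 ligand, receptor and interferon genes, of which Cd40lg was not analysed here, and the 2 genes nearest in pattern. All others were named after their values were seen.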

Additional observations from a re-analysis of the deposited data

How the results depend on the processing

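The count of members that fell was 0 under every alternative run, and of members that rose 0 except with DESeq2 (2), limma-voom with sample quality weights (1) and without treated 3 (1, range 0 to 1 over leave-outs). Only 6 of the 10 passed a filter of 1 CPM in 3 libraries. Over all genes, 246 rose and 45 fell, against 754 and 367 with DESeq2, 601 and 191 with quality weights and, for falls, 10 with no low-count filter. Leaving out 1 library gave 94 to 308 rises and 3 to 39 falls. With the replicate number as a block, 0 members were called and 123 genes rose and 14 fell. The labels do not state that the numbers pair the samples. Deviations from the group mean gave no sign of it (correlations 0.0855, -0.164 and -0.107 for equal numbers, while treated 3 was nearest to control 2, at 0.239). With 3 libraries per group such values cannot exclude a pairing.

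The direction of 8 members held in all alternatives run. Log2 fold changes that turned were, with quality weights, Zbtb46 -0.026, Chuk 0.015, Lck -0.022, Ahsa2 -0.042 and Ccl21a -1.45. With limma-voom they were Flt3l -0.087 and Ccl21a -1.07, and with the replicate block Flt3l -0.066 and Ccl21a -0.17. When 1 library was left out, values ran from -0.13 to 0.18 for Zbtb46, -0.17 to 0.74 for Batf3, -0.0092 to 0.58 for Il2rg, -0.059 to 0.060 for Chuk, -0.65 to 0.27 for Prf1, -0.11 to 0.18 for Hnrnph3, -0.10 to 0.13 for Ahsa2, -0.19 to 0.39 for Flt3l and -0.65 to 1.48 for Ccl21a. Per Pecam1 count, an alternative added after seeing the data, Zbtb46 was -1.25, which restates the rise of Pecam1. None of these was called. The cause was not tested. Flt3 and Xcr1, with at most 37 counts in a library, are limited by depth.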

Other observations

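Csf2, which encodes the growth factor GM-CSF, had 34, 12 and 4 counts in treated libraries 1, 2 and 3 and 4, 3 and 0 in controls, below the filter. Ly6d, a lymphoid progenitor and keratinocyte surface gene that is also in the plasmacytoid list, had 260 counts in treated 1, 27 in treated 2 and 0 in treated 3, against 10, 0 and 10 in controls. Klf4, a factor of type 2 dendritic cells and of vessels, had 226, 425 and 394 counts in treated and 490, 752 and 1191 in control libraries, with no overlap (log2 fold change -1.33 ± 0.39 SE, edgeR adjusted p = 0.158). These genes were named after their values were seen.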
